A study of Mus musculus with 6 samples.

Results

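The COP9 signalosome (CSN) is a protein complex that removes the ubiquitin-like protein NEDD8 from cullins, the scaffolds of cullin-RING ubiquitin ligases. It was examined here in regulatory T (Treg) cells that had lost Ube2m and Ube2f, the E2 enzymes of the opposite step, the attachment of NEDD8. The genes of its subunits were taken as Gps1, Cops2, Cops3, Cops4, Cops5, Cops6, Cops7a, Cops7b and Cops8, and a probe set belonged to the complex if the annotation of the array gave it one of these symbols. All 9 genes were found, each with 1 probe set, among 19505 gene symbols. The small additional subunit Cops9 was measured beside them.

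The expression of these genes was compared between 3 control arrays and 3 arrays of Ube2m&Ube2f-deficient cells. Each array held RNA of CD4+YFP+ Treg cells sorted from lymph nodes and spleen, pooled from 2 to 3 mice of 8 to 12 weeks. The labels call the groups control and Ube2m&Ube2f-deficient. By the study, deficient cells were from female Foxp3Cre/wt;Ube2mfl/fl;Ube2ffl/fl mice and control cells from Foxp3Cre/wt mice, so that YFP and Cre expressed from the Foxp3 locus were common to both groups. Foxp3 lies on the X chromosome, which is inactivated at random, so that in these females only a portion of the Treg cells carries out the deletion, and the others, which lack YFP, were not sorted. The sample titles name muscle, whereas 9 skeletal muscle genes had mean log2 signals of 3.83 to 4.06 per array, all 9 of them at or under the reference for silent genes on every array, and 9 T cell genes had mean log2 signals of 15.18 to 15.54. That reference, 5.39, is the 95th percentile of the mean log2 signals of 1091 olfactory receptor genes. Foxp3, Nrp1 and Ube2m have no named probe set here and were not analysed. Of 8 listed Treg markers, 6 were measured. Their mean log2 signals were 14.10 to 14.30 on the control and 13.57 to 13.84 on the deficient arrays. These means hold unlike genes, with log2 differences (deficient minus control) from -1.49 to 0.60. At an adjusted p under 0.05 in limma, 2 of the 6 were lower, against 2.27% of all probe sets, and 4 did not pass. Ube2f, one of the deleted genes, had log2 signals of 11.91, 11.82 and 11.90 on the control arrays and 9.70, 9.72 and 9.82 on the deficient arrays, a difference of -2.13 (limma, adjusted p = 0.000263). The sources used here do not say whether its probes match the deleted exons.

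NEDD8 on a cullin opens the ligase for ubiquitin transfer, and its removal by the CSN allows the substrate receptor of the ligase to be exchanged. The complex is built from subunits with a PCI domain, which form a scaffold, and a pair of subunits with an MPN domain, of which Cops5 is the protease and Cops6 its partner without the catalytic motif. The same architecture is found in the lid of the proteasome and in the translation factor eIF3. In mice, Cops8 is needed for the homeostasis of peripheral T cells and Cops5 for the development of thymocytes.

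The sequences around the transcription start are shown for the members that the results turn on, namely Cops3, the only one whose groups did not overlap, Cops6, the one with the widest spread, and the paralogs Cops7a and Cops7b. Each sequence runs from 250 bases before to 50 bases after the annotated start (RefSeq, GRCm38.p6), on the strand of the gene. Capitals mark matches on either strand to 6 motifs. These were CCGGAAG as a core of ETS factor sites, the GC box written as GGGCGG, the E-box written as CACGTG, the CCAAT box, the TATA box written as TATAAA, and lastly a run of letters seen in Cops7b and described below the sequences. Matches of different motifs may overlap.
Cops3, chr11:59839718-59840017, minus strand: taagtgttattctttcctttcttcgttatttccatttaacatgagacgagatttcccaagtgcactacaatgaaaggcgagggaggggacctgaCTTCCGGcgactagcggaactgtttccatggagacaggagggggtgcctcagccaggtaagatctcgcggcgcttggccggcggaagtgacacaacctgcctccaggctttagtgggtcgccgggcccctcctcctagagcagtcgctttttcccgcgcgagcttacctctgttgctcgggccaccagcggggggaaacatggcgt
Cops6, chr5:138160852-138161151, plus strand: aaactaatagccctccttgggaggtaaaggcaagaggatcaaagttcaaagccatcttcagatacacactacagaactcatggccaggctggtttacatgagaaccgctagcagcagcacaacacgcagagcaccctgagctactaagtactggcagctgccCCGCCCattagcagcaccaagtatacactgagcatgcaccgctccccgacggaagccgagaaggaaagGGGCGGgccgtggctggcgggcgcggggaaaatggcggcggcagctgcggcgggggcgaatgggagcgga
Cops7a, chr6:124965463-124965762, minus strand: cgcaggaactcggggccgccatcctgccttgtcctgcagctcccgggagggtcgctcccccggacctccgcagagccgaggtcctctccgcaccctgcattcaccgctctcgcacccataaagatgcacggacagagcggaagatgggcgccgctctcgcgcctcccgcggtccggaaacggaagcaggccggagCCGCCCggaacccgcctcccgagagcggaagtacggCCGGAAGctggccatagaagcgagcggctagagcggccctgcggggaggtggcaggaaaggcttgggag
Cops7b, chr1:86582671-86582970, plus strand: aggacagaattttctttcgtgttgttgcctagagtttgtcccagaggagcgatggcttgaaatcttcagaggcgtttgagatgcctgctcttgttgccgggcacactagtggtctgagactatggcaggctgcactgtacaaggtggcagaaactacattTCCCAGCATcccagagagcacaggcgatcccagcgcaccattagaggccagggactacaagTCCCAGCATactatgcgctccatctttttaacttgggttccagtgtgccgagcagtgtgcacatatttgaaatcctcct

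Of the 9 members, 8 matched a window in the table used, with 10 windows in all because Cops7a and Gps1 have several annotated starts. The GC content of these windows ranged from 51.0% for Cops7b to 80.0% for a window of Gps1, against a median of 52.7% over all windows. CCGGAAG was found in 6 of the 10 windows, in Gps1, Cops2, Cops3, Cops7a and Cops8, and in 8.86% of 32851 windows of all genes. The 2 windows of Gps1 overlap and hold the same CCGGAAG match, so that it was counted in both. GGGCGG was found in 7 of the 10 windows, in Gps1, Cops4, Cops6, Cops7a and Cops8, against 35.66% of all windows. CACGTG was found in 2 windows, of Cops8 and of the other start of Cops7a, against 7.15%, and CCAAT in 1, of Cops4, against 37.41%. TATAAA was found in 0 of the 10 and in 13.62% of all windows. The windows of the paralogs Cops7a and Cops7b printed above shared none of these motifs, and that of Cops7b held TCCCAGCAT at 2 places. TCCCAGCAT was chosen after the sequence had been read, and 0.83% of all windows hold it, 0.0213% at 2 or more places. A match is a description of these letters only.

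None of the 9 CSN subunit genes differed between deficient and control Treg cells at an adjusted p under 0.05 (limma, over 22206 probe sets). Cops5, the catalytic subunit, and Cops2 had small positive differences, and the other 7 had differences below zero, the lowest being that of Cops3 at -0.39. All differences are given on the log2 scale as deficient minus control, and 8 of the 9 were smaller than 0.2 in size. Over all probe sets 0.581% were higher and 2.27% were lower at this threshold. With no adjustment, 0 of the 9 had a p under 0.05, against 12.9% of all probe sets. With the cutoffs the study used (a fold over 1.5 and p under 0.05, not adjusted), 0 members were higher and 0 were lower, against 3.24% and 5.82% of all probe sets. The methods' t-test gave 0 members at an adjusted p under 0.05, where it called 1 probe set higher and 5 lower in the whole table. Without adjustment it gave 1 member, Cops3, against 12.1% of all probe sets. The median difference of the members was -0.07, against 0.02 over all probe sets.

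All 9 genes gave log2 signals above the silent-gene reference on every array, the lowest value being 7.58 for Cops7b on deficient array 3. The scaffold subunit Gps1 (CSN1) had log2 signals of 10.31, 10.80 and 10.98 on control arrays 1, 2 and 3 and of 10.84, 10.68 and 10.38 on deficient arrays 1, 2 and 3. The groups overlapped over most of their range, and the difference was -0.06 with a standard error of 0.229 and a 95% interval from -0.58 to 0.46 (limma, adjusted p = 0.958). Cops2, a scaffold subunit that in T cells has been found bound to the Malt1 signalling complex, had log2 signals of 11.17, 10.77 and 10.90 on the control arrays and 11.02, 11.18 and 10.89 on the deficient arrays. Its difference was 0.08 (SE 0.188, interval -0.34 to 0.51, adjusted p = 0.926), with the highest values of both groups at nearly the same level.

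Cops3, a further PCI subunit, was the only member whose groups did not overlap. Its log2 signals were 10.31, 10.44 and 10.49 on the control arrays and 9.99, 10.19 and 9.89 on the deficient arrays. The means were 10.41 ± 0.09 and 10.02 ± 0.15 (SD, n = 3 each), a difference of -0.39 (SE 0.175), or 1.31-fold lower. The 95% interval ran from -0.79 to 0.0083. The adjusted p in limma was 0.401. By exact permutation of the arrays, two-sided, p was 0.1, which is the lowest value 3 against 3 arrays can give. So 1 of the 9 members had groups without overlap, against 18.2% of all probe sets. Cops3 kept its negative difference in all 14 alternatives, between -0.53 and -0.30. Its unadjusted p was under 0.05 in 4 of them, namely the methods' t-test (0.0195), array weights (0.0403), without deficient array 2 (0.0397) and without control array 1 and deficient array 2 together (0.0497). After quantile normalization its groups overlapped.

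**Figure D1:**
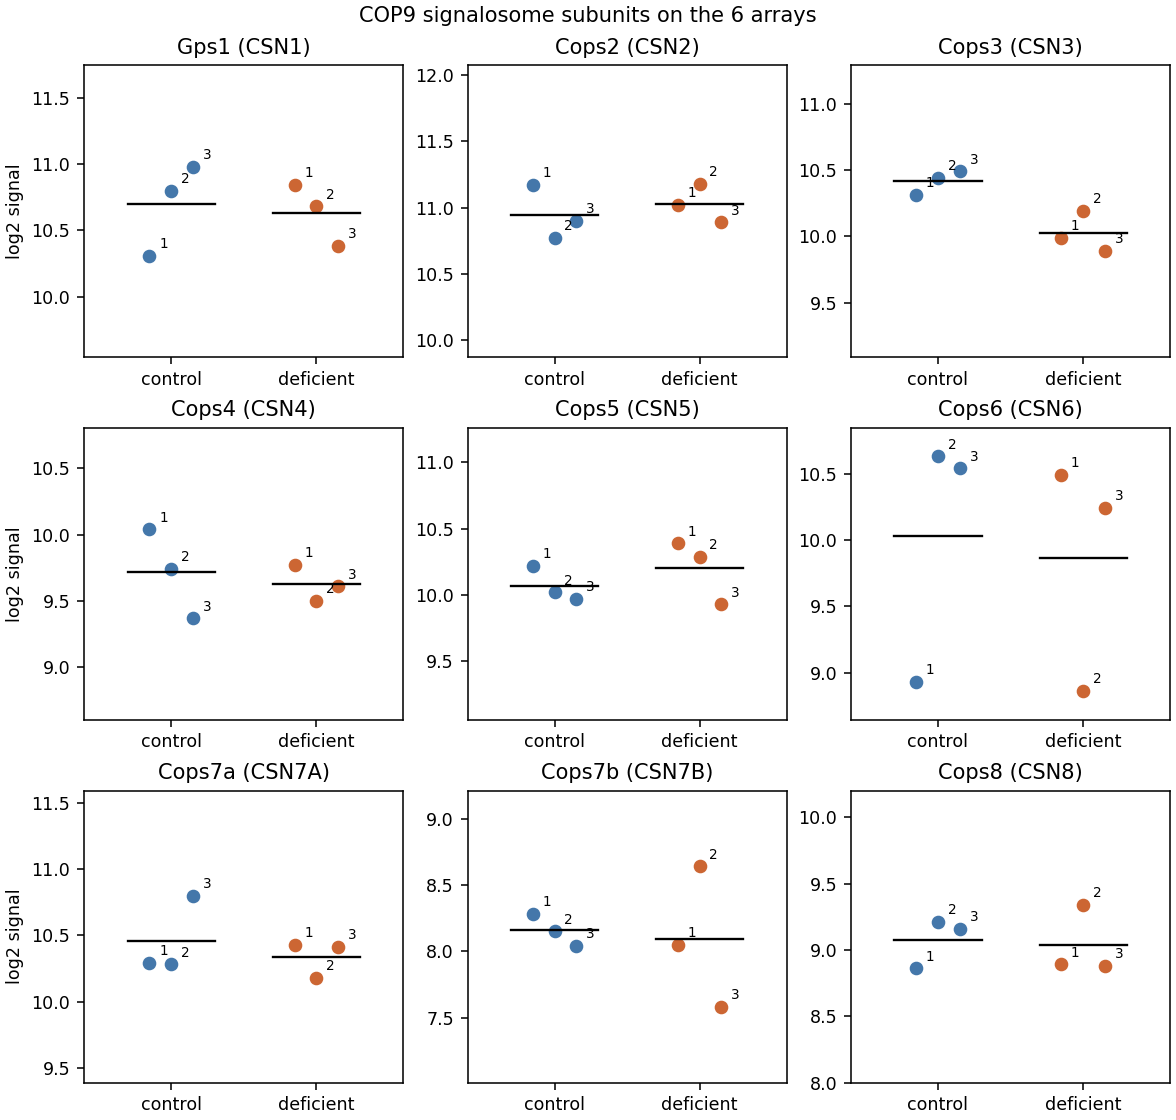
Log2 signal of the 9 CSN subunit genes on 3 control and 3 deficient arrays, with the replicate number beside each point and the group mean as a line. Each panel spans the same number of log2 units at its own level. Cops3 is the gene whose groups do not overlap, and Cops6 has 1 low array in each group.

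The scaffold subunit Cops4 had log2 signals of 10.04, 9.74 and 9.37 on the control arrays and 9.77, 9.50 and 9.61 on the deficient arrays. All deficient values lay within the range of the control values. The difference was -0.09 (SE 0.214, interval -0.58 to 0.40, adjusted p = 0.930). It turned to 0.07 without control array 1 and to 0.14 without control array 1 and deficient array 2.

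Cops8, the smallest of the PCI subunits, had log2 signals of 8.86, 9.21 and 9.16 on the control arrays and 8.89, 9.34 and 8.88 on the deficient arrays. The extremes of the groups lay close together, and the difference was -0.04 (SE 0.205, interval -0.50 to 0.42, adjusted p = 0.974). Without control array 1 and deficient array 2, the Cops8 difference was -0.30, and its sign turned in 5 alternatives, the highest value being 0.04.

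Cops7a and Cops7b are paralogs that take the same place in the complex, so that an assembled complex holds one of them. Cops7a had log2 signals of 10.29, 10.28 and 10.80 on the control arrays and 10.43, 10.18 and 10.41 on the deficient arrays, a difference of -0.12 (SE 0.206, interval -0.58 to 0.35, adjusted p = 0.900). Cops7b had log2 signals of 8.28, 8.15 and 8.04 on the control arrays and 8.05, 8.64 and 7.58 on the deficient arrays, a difference of -0.07 (SE 0.266, interval -0.67 to 0.54, adjusted p = 0.964). The Cops7b values spanned 0.24 on the control and 1.06 on the deficient arrays, with deficient array 2 at the top and deficient array 3 at the bottom of all 6. To ask whether the paralogs responded differently, the log2 signal of Cops7b was subtracted from that of Cops7a on each array. It gave 2.01, 2.13 and 2.76 on the control arrays and 2.38, 1.54 and 2.83 on the deficient arrays, and the change between the groups was -0.05 (exact two-sided permutation test, p = 1.0). These offsets hold the brightness of different probes, so that only their change between the groups can be read. That change ranged from -0.34 without deficient array 3 to 0.31 without deficient array 2.

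Cops5 (CSN5, also known as Jab1), the metalloprotease that cuts NEDD8 from cullins, had log2 signals of 10.22, 10.02 and 9.97 on the control arrays and 10.39, 10.29 and 9.93 on the deficient arrays. Deficient arrays 1 and 2 lay above all controls and deficient array 3 below them. The difference was 0.13 (SE 0.194, interval -0.31 to 0.57, adjusted p = 0.874), and it stayed above zero in all 14 alternatives, between 0.04 and 0.27. Among 8927 genes above the silent-gene reference, those with the smallest mean absolute difference from Cops5 in their deviations over the 6 arrays were Maip1 (0.0411), Rnf145 (0.0433) and Ate1 (0.0483). Of the other members, Cops2 lay nearest to Cops5 with a mean absolute difference of 0.108, at rank 208, and Cops6 lay farthest with 0.781, at rank 8556. The other 6 members had mean absolute differences from 0.205 for Cops4 to 0.262 for Cops7a.

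**Figure D2:**
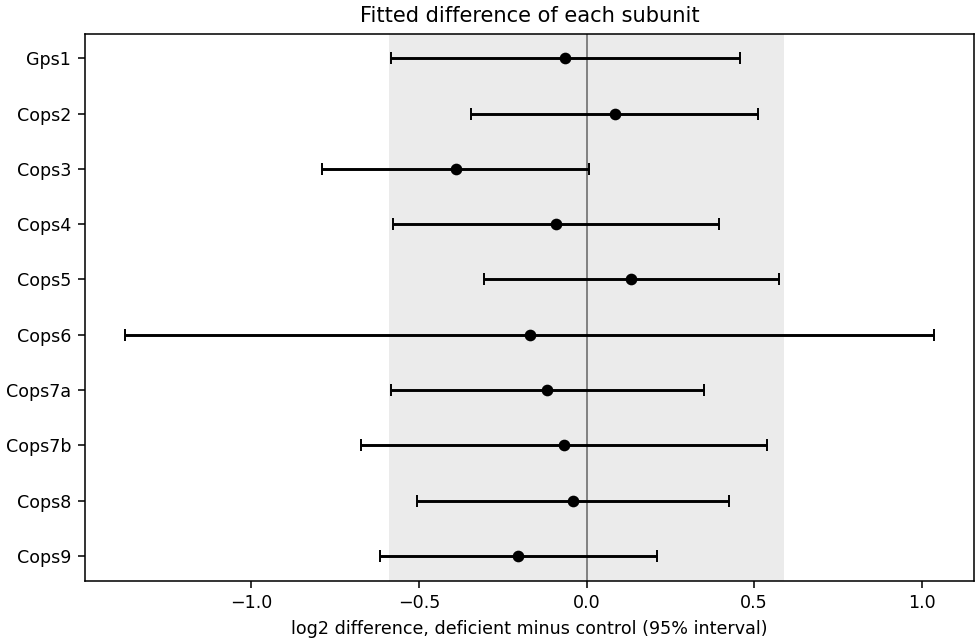
Fitted log2 difference (deficient minus control) of each CSN subunit gene and of Cops9, with its 95% interval from limma. The shaded band marks differences smaller than 1.5-fold in either direction. The intervals of Cops3, Cops6, Cops7b and Cops9 reach beyond it.

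Cops6, the MPN partner of Cops5, had the widest spread of the members. Its log2 signals were 8.93, 10.63 and 10.54 on the control arrays and 10.49, 8.86 and 10.24 on the deficient arrays. Control array 1 and deficient array 2 were low, and the other 4 arrays lay between 10.24 and 10.63. The difference was -0.17 with an SE of 0.531 and an interval from -1.38 to 1.04 (adjusted p = 0.950), so a difference of 1.5-fold in either direction was not detectable in this gene. It moved from -0.72 without control array 1 to 0.33 without deficient array 2, and was -0.22 without both of these arrays. Cops5 minus Cops6 gave 1.29, -0.61 and -0.57 on the control arrays and -0.10, 1.43 and -0.31 on the deficient arrays, a change of 0.30 between the groups (exact two-sided permutation test, p = 0.5). This and the comparison of Cops7a with Cops7b were the only 2 comparisons of pairs, and both had an adjusted p of 1.0.

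The low Cops6 values fell on arrays that also stood apart elsewhere in the table. The other 8 members deviated from their own means over the 6 arrays by -0.54 to 0.52. Over the whole table, 170 probe sets (0.766%) were at least 1 log2 unit lower on both control array 1 and deficient array 2 than on each of the other 4 arrays, and Cops6, with a gap of 1.31, was the only CSN subunit among them. Of the 99 with a symbol, 19 were olfactory receptor genes (Olfr), 19 vomeronasal receptor genes (Vmn1r) and 16 members of the Btbd35f family, all multicopy families. The median log2 signal of 22 Btbd35f genes was 4.73 on control array 1 and 5.45 on deficient array 2, and 7.13 to 8.74 on the other arrays. The median of 1091 Olfr genes was 3.61 and 3.73 on these arrays and 4.01 to 4.39 on the others. The Olfr medians lie under the silent-gene reference on every array, and the Btbd35f median does so on control array 1 only. The size of these shifts therefore cannot be compared with that of Cops6. Only 1 probe set was at least 1 log2 unit higher on both control array 1 and deficient array 2. It was that of Klrb1c, a natural killer cell receptor, with log2 signals of 6.98 and 7.71 against 5.01 to 5.79. The 6 CD8 and natural killer cell markers had mean log2 signals of 5.81 and 6.48 on these arrays and 4.89 to 5.55 on the others. Of these markers, Cd8a, Eomes, Ncr1 and Klrb1c were highest on control array 1 and deficient array 2. Cd8b1 was highest on deficient array 1, and Klrk1 was higher on every deficient array than on any control array. Their part in the Cops6 values was not tested.

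**Figure D3:**
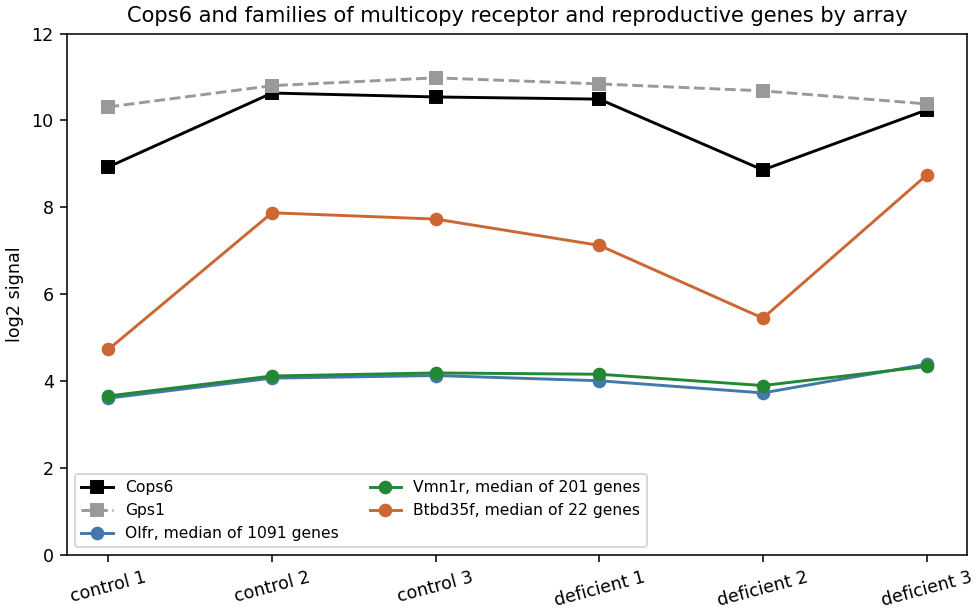
Log2 signal of Cops6 and, for comparison, of Gps1 on each of the 6 arrays, with the median log2 signal of 3 multicopy gene families (1091 Olfr, 201 Vmn1r and 22 Btbd35f genes). Cops6 and the Btbd35f median are lowest on control array 1 and deficient array 2, and levels of different probes are not to be compared.

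The intervals depended on the arrays used, on the processing and on the model. For 6 of the 9 members (Gps1, Cops2, Cops4, Cops5, Cops7a and Cops8) the 95% interval lay inside 1.5-fold in both directions. That limit is a log2 difference of 0.585. It was met by 66.7% of the members, against 26.1% of all probe sets. The limit was also met by 5 of 9 proteasome lid subunits (55.6%) and 4 of 12 eIF3 subunits (33.3%). The count of CSN members was the same with an intensity trend and lower in the 13 other alternatives. It was 2 of 9 after median centring and without the dimmest probe sets, against 21.1% and 17.3% of all probe sets. After quantile normalization and with array weights it was 4, against 25.6% and 27.7%. With the replicate block and with the methods' t-test it was 3, against 20.6% and 23%. It was 1 (Cops4) without control array 1, 1 without deficient array 3, 2 without any other single array and 0 without control array 1 and deficient array 2 together, against 12.1%, 14.8%, at most 15.7% and 5.71% of all probe sets. The standard errors of the 9 ranged from 0.175 for Cops3 to 0.531 for Cops6. Cops9 had log2 signals of 14.15, 14.05 and 14.23 on the control arrays and 13.97, 14.12 and 13.73 on the deficient arrays. Its groups overlapped by deficient array 2, and its difference was -0.20 (interval -0.62 to 0.21, adjusted p = 0.756), or -0.098 without deficient array 3. The median log2 signal of the 9 members was 10.22, 10.28 and 10.49 on the control arrays and 10.39, 10.18 and 9.93 on the deficient arrays. These medians overlapped between the groups and differed in their means by -0.16, between -0.28 and -0.05 over the alternatives. A lower signal of a bulk sample cannot be told apart from a lower share of the cells that carry the transcript.

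The proteasome lid and eIF3, the complexes built on the same domains, were set beside the CSN. Of 9 lid subunits, 0 passed the adjusted threshold, with a median difference of 0.11 and 7 of 9 above zero. Psmd3 (0.24) and Psmd7 (0.23) had the lowest p among them. Their sizes rested on single arrays, with Psmd3 at 0.12 without deficient array 1 and 0.36 without deficient array 3, and Psmd7 at 0.098 without control array 2 and 0.36 without control array 3. Of 12 measured eIF3 subunits, 0 passed, with a median of 0.20 and 9 of 12 above zero. Eif3d, with 0.52 (adjusted p = 0.258), and Eif3e, with 0.33 (adjusted p = 0.547, and 0.20 without deficient array 2), had the lowest p. The CSN members had 2 of 9 differences above zero, while over all probe sets 11770 of 22206 were above zero. This CSN count was 5 of 9 after quantile normalization and without deficient array 3, and 6 of 9 without control array 3. Over all probe sets the shares in these 3 settings were 53.8%, 50.3% and 53.7%. The counts of the lid and of eIF3 were not made under the alternatives. Whether the 3 complexes differ was not tested.

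Among 10 other genes of the MPN domain family, which include lid and eIF3 subunits, 1 passed the threshold and 9 did not. Stambpl1, a deubiquitinase with the same kind of metalloprotease centre as Cops5, had log2 signals of 11.56, 11.48 and 11.41 on the control arrays and 12.30, 12.43 and 12.35 on the deficient arrays. It rose by 0.88 (SE 0.166, adjusted p = 0.0274), with no overlap between the groups. The call was lost without any one of the 6 arrays and in 10 of 14 alternatives in all, among them median centring and the replicate block (adjusted p = 0.0881), while the difference stayed between 0.84 and 0.96. Its close relative Stambp, chosen after its values were seen, had a difference of -0.69 with an adjusted p of 0.139, and its groups did not overlap either. The interval of Stambpl1, from 0.50 to 1.25, overlapped that of Cops5, and their difference was not tested.

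**Figure D4:**
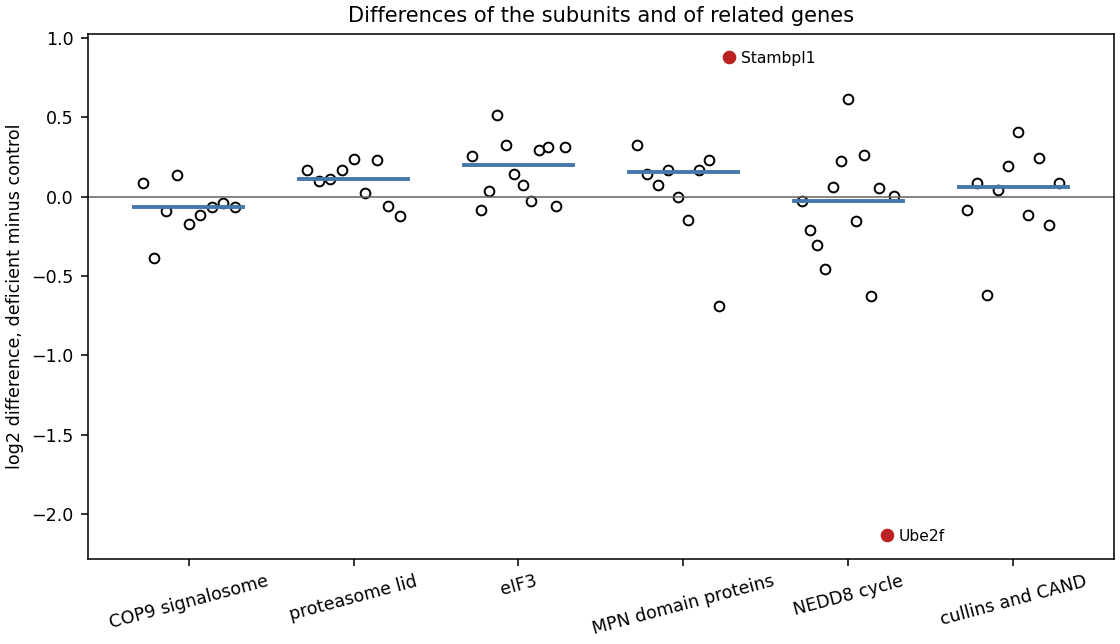
Log2 difference (deficient minus control) of each measured gene of the CSN, the proteasome lid, eIF3, other MPN domain proteins, the NEDD8 cycle, and the cullins with their exchange factors. Bars mark the median of each list and filled points the genes with an adjusted p under 0.05, Stambpl1 and Ube2f.

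The NEDD8 cycle, which makes, attaches and processes NEDD8, and the cullins, the substrates of the CSN, were measured as well. Of 13 measured genes of the NEDD8 cycle, 1 fell, Ube2f itself, and 12 did not pass. Besides Ube2f, 2 of them had an unadjusted p under 0.05, Dcun1d4 and Senp8. Dcun1d4, of a family that promotes the attachment of NEDD8, had a difference of -0.46 (adjusted p = 0.356), with a deficient mean of 5.35 under the silent-gene reference. Senp8, the protease that processes NEDD8 and removes it from proteins other than cullins, had a difference of -0.62 (adjusted p = 0.376), or -0.41 without deficient array 2. Nedd8 had one of 0.61 (adjusted p = 0.395), with deficient array 3 within the control range, and one of 0.92 without that array (adjusted p = 0.0837). These 3 genes were chosen after their values were seen. Of 10 cullins and exchange factors, 0 passed, with a median of 0.06. Cul1, a main substrate of the CSN, had log2 signals of 10.60, 10.76 and 10.76 on the control arrays and 10.04, 10.05 and 10.17 on the deficient arrays, a difference of -0.62 (unadjusted p = 0.00509 in limma, adjusted p = 0.114). Cul4a had a difference of 0.41 (adjusted p = 0.395).

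Proteins that bind the CSN or are handled by Cops5 were a further list. Of 5 measured CSN-associated enzymes, 0 passed, with the kinase subunit Csnk2a2 at 0.25 and the inositol phosphate kinase Itpk1 at -0.18. Csnk2a2 was at 0.053 without deficient array 2 and 0.41 without deficient array 3, and Itpk1 at -0.083 without control array 3. Of 8 measured partners of Cops5, 1 fell and 7 did not pass. The one that fell was Hif1a, the hypoxia-inducible transcription factor that Cops5 binds, with log2 signals of 14.54, 15.12 and 14.46 on the control arrays and 13.42, 13.73 and 13.19 on the deficient arrays, a difference of -1.26 (SE 0.238, adjusted p = 0.0274). That call was lost without any one of the arrays except deficient array 2 (adjusted p up to 0.108), with differences from -1.49 to -1.05 over the 14 alternatives. Of the Malt1 signalling complex that associates with Cops2 and Cops5 in T cells, Malt1 fell by 1.17 on the log2 scale (SE 0.174, adjusted p = 0.00873), from 8.76, 8.97 and 8.92 on the control to 7.63, 7.86 and 7.66 on the deficient arrays. Malt1 kept its call in each limma alternative (adjusted p up to 0.0481). Bcl10 of the same complex, chosen after its values were seen, had a difference of -0.24 (adjusted p = 0.692, and -0.16 without deficient array 3).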

How the data were processed

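RNA of 6 samples of CD4+YFP+ Treg cells, 3 control and 3 Ube2m&Ube2f-deficient, was amplified, labelled and hybridised to Clariom S mouse arrays. Since each sample pooled several mice, p-values reflect how far pools differ. Groups and replicate numbers were taken from the labels. The authors deposited a log2 signal for each probe set and array, and these values were analysed. They were made with Affymetrix Expression Console 1.4 according to the submitters' processing notes. Summarisation, background correction, normalization and the log base are not given in the sources used. The scale was read as log2 from the values, which ran from 2.06 to 19.90 with array medians of 4.89 to 5.11, and another base would change folds but not signs. Neither scanner intensities nor detection calls nor scan dates were used, and the number of arrays limits the precision.

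The platform annotation gave 1 gene symbol to 19572 of 22206 probe sets and left 2634 unnamed. A symbol with several probe sets was represented by the brightest over the 6 arrays. Groups were compared across all probe sets by lmFit and eBayes of limma 3.58.1 in R 4.3.3, without covariates, adjusted by Benjamini-Hochberg and called under 0.05. Pairs of members were compared by exact permutation of the arrays. The step was tested on simulated data. Promoter windows came from a RefSeq table of build GRCm38.p6, in which motifs were searched on both strands.

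The members, the gene lists and the tests were chosen with earlier results of these data known. Named genes were the 9 members, Cops9, Ube2f, up to 4 called genes of each list or, where none was called, the 2 with the lowest p, and the 3 genes nearest to Cops5. Outside this rule, Stambp, Dcun1d4, Senp8, Nedd8, Bcl10, Klrb1c, the cell markers beside it and the neighbours Pde6d, Dus1l and Nt5m were picked with their values in view. The alternatives were the methods' t-test, array weights, quantile normalization, median centring, a robust variance with an intensity trend, a filter on the 40% dimmest probe sets, a replicate block, and leaving out each array. A fit without both control array 1 and deficient array 2 was added after seeing the data, because a principal component set them apart.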

Additional observations from a re-analysis of the deposited data

How the results depend on the processing

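In each of the 14 alternatives 0 members passed the adjusted threshold and 0 passed the threshold of the study, with a lowest adjusted p of 0.293, that of Cops3 in the methods' t-test. Of 126 differences of single members under the alternatives, 109 kept their direction and 17 were reversed, and the cause was not tested. After quantile normalization the differences of Cops7b (0.0389), Cops8 (0.0403) and Gps1 (0.0192) were above zero and 0 members had groups without overlap. Without control array 1 and deficient array 2 together, a setting added after seeing the data, Cops4 was at 0.14, the change of Cops7a against Cops7b was 0.16, and 3 members were without overlap, against 8883 of all 22206 probe sets with 2 arrays left in each group. Leaving out each array in turn gave differences from -0.005 to 0.20 for Cops2, -0.26 to 0.0717 for Cops4, -0.72 to 0.33 for Cops6, -0.21 to 0.055 for Cops7a, -0.34 to 0.19 for Cops7b, -0.19 to 0.0383 for Cops8 and -0.26 to 0.0783 for Gps1. The change between the groups ranged from -0.34 to 0.31 for Cops7a against Cops7b and from -0.24 to 0.93 for Cops5 against Cops6. Members without overlap numbered 1 to 2, the 2 being found without control array 1 or without deficient array 3, against 26.8% and 27.9% of all probe sets. With the replicate block 0 members passed (lowest adjusted p = 0.517), and over all probe sets 70 were higher and 367 lower, against 129 and 503 without it. Same-numbered arrays had correlations of their deviations of -0.0561, -0.24 and 0.29. For arrays of unlike number they ran from -0.433 to 0.441, the highest being that of control array 1 with deficient array 2. With 3 arrays in each group, these values cannot show whether equal numbers mark paired samples. The methods' t-test called 1 probe set higher and 5 lower in the whole table, and with it the calls of Stambpl1, Hif1a and Malt1 were lost (adjusted p = 0.0867, 0.219 and 0.0905). Averaging several probe sets of a symbol was not run, because each member has 1.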

Other observations

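Genes next to the CSN subunit genes were also looked at. Within 2 kb of the members, 14 annotated neighbours were found in RefSeq (GRCm38.p6), 7 of them were measured, and 0 of these 7 passed the adjusted threshold in limma, while 2 had an unadjusted p under 0.05. Pde6d, which overlaps Cops7b, had a log2 difference of -0.62 (adjusted p = 0.160) where Cops7b had -0.07. Dus1l, which overlaps Gps1, had one of 0.50 (adjusted p = 0.351) where Gps1 had -0.06. Nt5m, which overlaps Cops3, had a difference of -0.29 (adjusted p = 0.624) beside -0.39 for Cops3, and one of -0.15 without control array 2. Probe positions were not at hand, and whether a probe set of an overlapping pair could take up signal of its partner was not tested.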
